A study of Mus musculus with 16 samples.

Results

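The comparison described here is the genotype difference between vehicle-infused 3xTg mice (3xTg-D) and vehicle-infused WT mice (WT-D) in whole hippocampus. All libraries of both groups were taken, which gave 8 of the 16 sequenced mice, 4 per group, and the difference was measured across all 16475 genes that passed a filter on low counts. All mice were females aged 10 months. Each had received 28 days of intracerebroventricular infusion from an osmotic pump of the vehicle, which contained 0.8% DMSO. The 3xTg mice carried human APPSwe and tauP301L transgenes, both under the mouse Thy1.2 regulatory element, together with a mutant knock-in allele of another gene. The WT mice (strain label C57BL/6J x 129S1) carried none of these. WT mice were strain controls and are not described as littermates of the 3xTg mice, so the transgenes, the knock-in and differences in the strain background on either side cannot be told apart. The remaining 8 mice, 4 WT-S and 4 3xTg-S, received the stearoyl-CoA desaturase inhibitor CAY10566 at 80 µM in the same vehicle. They share no animal with the vehicle groups and served here to see whether a genotype difference recurred.

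The hippocampus holds the granule cells of the dentate gyrus and the pyramidal cells of the CA fields, with interneurons, astrocytes, oligodendrocytes, microglia and vessels around them. APP is the precursor of the amyloid beta peptide and tau (Mapt) is a microtubule-binding protein of axons. Reactive astrocytes, microglia that adopt a disease-associated state, altered myelin and loss of synapses are the cellular changes for which Alzheimer's disease models are best known.

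Between 19124838 and 23309273 reads fell on genes in WT-D mice and between 18056497 and 23590149 in 3xTg-D mice. Expression is given as CPM, the reads of a gene per 1000000 reads after TMM scaling, as mean ± SD with n = 4 mice per group unless stated. The markers of neurons, dentate granule cells, CA1 and CA2 or CA3 pyramidal cells were present in every library, with summed levels of 8094 to 9982 CPM, 625 to 776 CPM, 879 to 958 CPM and 484 to 638 CPM. The first principal component (35.8% of the variance) separated the genotypes. The second (22.6%) set mouse 1 of WT-D (WT-D1) and mouse 2 of 3xTg-D (3xTg-D2) apart from the other 6. These 2 mice had 1125 and 570 summed CPM of MHC and antigen presentation genes, against 180 to 213 CPM in the others, and 649 and 477 CPM of interferon-response genes, against 145 to 203 CPM. Mouse 4 of WT-D (WT-D4) held 1415 summed CPM of choroid plexus markers, against 207 to 276 CPM in the other 7. The number of called genes, their directions, the calls of named genes and of the lists written gene by gene, and the share with a called neighbour were therefore also obtained without WT-D1 and 3xTg-D2, a choice made after seeing the data, and without each mouse in turn. Counts by gene class, chromosome, window, effect size and shared sequence were not.

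Of the 16475 tested genes, 305 (1.85%) differed between 3xTg-D and WT-D mice in edgeR's two-sided quasi-likelihood test. These genes, with p-values at or under 0.05 after Benjamini-Hochberg adjustment over all tested genes, are the called genes. Of these, 145 were higher in 3xTg-D (0.88% of tested genes) and 160 were lower (0.971%). At the study's threshold, an unadjusted p of 0.01 or less, 809 genes passed (4.91%), 402 higher (2.44%) and 407 lower (2.47%). The libraries of the 2 groups did not overlap for 301 of the 305 called genes, while the same held for 1359 of all tested genes (8.25%). Leaving out WT-D1 and 3xTg-D2 gave 312 called genes, 123 higher and 189 lower, and 228 of the 305 remained called. Leaving out 1 mouse gave 159 (without 3xTg-D3) to 300 (without 3xTg-D2) called genes. The count was also more than 1.5 times lower without 3xTg-D1 (180) and without WT-D4 (199), and the 145 higher genes fell to 78 without WT-D1 and to 94 without WT-D2.

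Among called genes, those that fell differed by more than those that rose, and they were more weakly expressed. The larger of the 2 group means had a median of 4.57 CPM among the lower genes and 20.4 CPM among the higher genes. Whether the gap in size reflects which weakly expressed genes can pass the test was not tested. The absolute log2 fold change had a median of 1.63 among the 160 lower genes and of 0.693 among the 145 higher genes, and of 0.0998 over all tested genes. Among the called genes, 163 (53.4%) differed by at least 1 on the log2 scale and 72 (23.6%) by less than 0.5. In 25 called genes 1 group held 3 or fewer reads in total, and 9 of these had no read at all in 1 group, for which a fold is only a lower bound. With those 9 genes set to that bound the medians stayed at 1.63 and 0.693. Called genes were found in every class of the annotation. Protein-coding genes accounted for 230 of them (1.61% of the 14247 tested), with 129 higher and 101 lower. Long noncoding RNAs gave 40 calls (2.9% of 1377), with 8 higher and 32 lower. Pseudogenes gave 32 calls (8.16% of 392), with 6 higher and 26 lower. Expression levels ran from under 1 CPM to more than 1000 CPM in the called genes, as the plot of fold change against mean level shows.

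**Figure D1:**
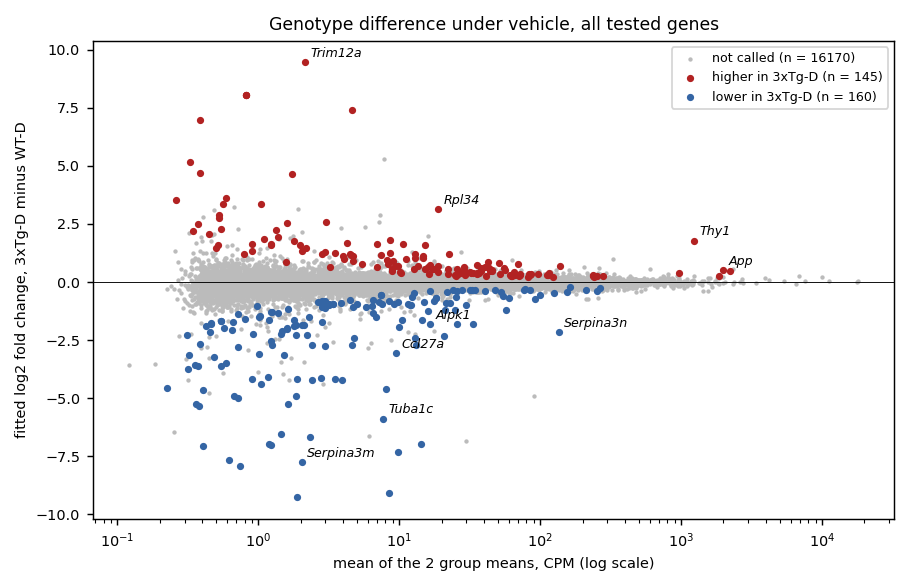
Fitted log2 fold change of 3xTg-D minus WT-D (vertical axis) against the mean of both group means in CPM (horizontal axis, log scale) for 16475 genes, each a point. The 145 genes higher in 3xTg-D are red and the 160 lower genes are blue; fitted values of genes with a group at 0 reads depend on the prior count and are not bounds.

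Genes tied to the genotype were read first. Thy1 (chr9:44043384-44048579, GRCm38), a surface glycoprotein of neurons whose regulatory element drives both transgenes, stood at 549, 573, 574 and 521 CPM in WT-D mice and at 1850, 1800, 2080 and 1880 CPM in 3xTg-D mice. The lowest 3xTg-D mouse was far above the highest WT-D mouse. Thy1 rose 3.44-fold (log2 fold change 1.78 ± 0.06 SE, adjusted p = 3.74e-07 by edgeR). App (chr16:84949685-85173766) stood at 1620, 1670, 1580 and 1640 CPM in WT-D and at 2300, 2120, 2430 and 2460 CPM in 3xTg-D, again without overlap, and rose 1.43-fold (log2 fold change 0.51 ± 0.06, adjusted p = 0.000897). Any transgene reads that align to the mouse Thy1 or App gene cannot be told apart from reads of the mouse gene in these counts. Mapt had 488 ± 14.7 CPM in WT-D and 514 ± 20.2 in 3xTg-D (adjusted p = 0.576), with the groups overlapping. How many reads of human tau align to mouse Mapt was not tested. Of the 16 tested genes of transgene and APP processing, Thy1 and App were called.

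Thy1 had the smallest p-value of all tested genes, and several of the next smallest belonged to genes that were lower in 3xTg-D. Ccl27a (chr4:41769467-41774247), a chemokine, stood at 17.2, 15.2, 16.8 and 18.9 CPM in WT-D and at 1.82, 2.21, 1.99 and 2.14 CPM in 3xTg-D. It fell by 3.05 ± 0.11 on the log2 scale (adjusted p = 3.74e-07). Of the 31-base words of its transcripts 57.0% also occur in other genes, and reads that mapped to several places were left out of the counts. Serpina3n, an inhibitor of serine proteases that astrocytes secrete and a widely used marker of their reactive state, stood at 254, 207, 224 and 204 CPM in WT-D and at 45.9, 56.4, 49.1 and 45.4 CPM in 3xTg-D. It fell 4.51-fold (log2 fold change -2.17 ± 0.09, adjusted p = 9.64e-07). Alpk1 (chr3:127670310-127780527), a kinase that senses bacterial sugar nucleotides in innate immunity, stood at 28.3, 24.4, 24 and 26.1 CPM in WT-D and at 7.01, 7.18, 7.67 and 7.41 CPM in 3xTg-D. It fell 3.51-fold (adjusted p = 1.13e-06), and only 0.3% of its 31-base words occur elsewhere. Wwox, an oxidoreductase whose human ortholog lies at an Alzheimer's disease risk locus, stood at 35.5, 35.8, 37.1 and 30.1 CPM in WT-D and at 15.1, 16.1, 14 and 14.8 CPM in 3xTg-D. It fell 2.3-fold (log2 fold change -1.20 ± 0.08, adjusted p = 2.01e-05). None of these genes had overlapping groups, and each stayed called in all 8 fits that left out 1 mouse.

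**Figure D2:**
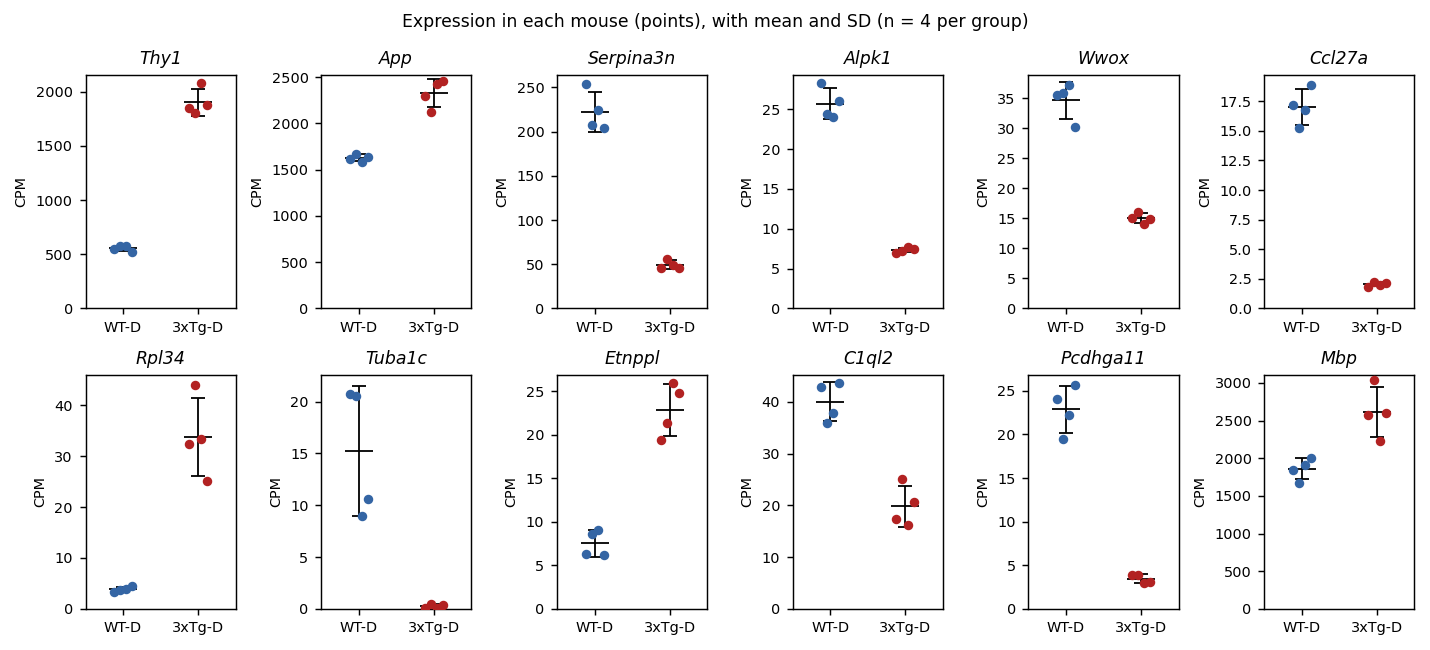
CPM of 12 genes in each of the 8 vehicle-infused mice (points), with the group mean (wide mark) and SD (bars), n = 4 mice per group, on linear axes from 0. Thy1, App, Rpl34, Etnppl and Mbp sit higher in every 3xTg-D mouse than in any WT-D mouse, and the other 7 genes lower.

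All 4 called genes among the 50 tested at 100 to 105 Mb of chromosome 12 were Serpina3 genes, and all were lower in 3xTg-D. Serpina3m (chr12:104338486-104394257) held 341 reads over the WT-D mice and 1 read over the 3xTg-D mice, a ratio of 324 with a 95% exact counting interval of 57.7 to 12800. Serpina3c stood at 0.941, 0.435, 0.602 and 0.72 CPM in WT-D and at 0.221, 0.17, 0.215 and 0.11 CPM in 3xTg-D (log2 fold change -1.89 ± 0.37, adjusted p = 0.0306). Serpina3f stood at 1.16, 0.387, 0.402 and 0.411 CPM in WT-D and at 0.0552, 0.127, 0.0537 and 0.0 CPM in 3xTg-D (adjusted p = 0.047). Serpina3c and Serpina3f held few reads. Each lost its call in 7 of the 8 fits without 1 mouse, Serpina3c in all but the one without WT-D2 (adjusted p up to 0.0825) and Serpina3f in all but the one without 3xTg-D2 (up to 0.151). Serpina3m and Serpina3n stayed called in every such fit. These genes are near copies of each other, and 35% of the 31-base words of Serpina3m and 21.6% of those of Serpina3n occur in other genes.

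The 250 bases before the RefSeq start of each Serpina3 gene for which a sequence was at hand are shown because these neighbours fell together. They are printed 5′ to 3′ on the strand of the gene (GRCm38.p6), with the longest run that all 3 share, 15 bases long, in capitals. The positions are chr12:104406458-104406707 on the plus strand for Serpina3n, chr12:104153873-104154122 on the minus strand for Serpina3c and chr12:104214294-104214543 on the plus strand for Serpina3f.
Serpina3n: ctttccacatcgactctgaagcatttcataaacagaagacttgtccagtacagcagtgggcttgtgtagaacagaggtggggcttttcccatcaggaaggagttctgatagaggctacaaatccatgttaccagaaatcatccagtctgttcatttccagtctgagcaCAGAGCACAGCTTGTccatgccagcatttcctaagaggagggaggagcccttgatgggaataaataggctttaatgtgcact
Serpina3c: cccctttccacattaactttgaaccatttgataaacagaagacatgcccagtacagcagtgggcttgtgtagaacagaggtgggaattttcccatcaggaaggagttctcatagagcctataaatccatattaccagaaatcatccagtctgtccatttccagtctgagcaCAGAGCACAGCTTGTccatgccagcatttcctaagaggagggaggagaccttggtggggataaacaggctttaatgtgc
Serpina3f: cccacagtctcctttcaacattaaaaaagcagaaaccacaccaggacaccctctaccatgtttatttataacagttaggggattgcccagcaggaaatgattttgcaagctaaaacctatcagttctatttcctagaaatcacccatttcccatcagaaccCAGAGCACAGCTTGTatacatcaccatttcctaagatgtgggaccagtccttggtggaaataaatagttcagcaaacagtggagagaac
The Serpina3n and Serpina3c stretches were identical at 92.7% of 247 aligned bases, and Serpina3f matched Serpina3n at 70.6% of 231. The shared run began 82 bases before the start of Serpina3n, 79 before that of Serpina3c and 89 before that of Serpina3f. The motif TTCNNNGAA, to which STAT factors bind, was searched on both strands and occurred in Serpina3f and not in the other two. It occurs in 7.04% of 32536 promoter stretches of that length. The letters TATAAA, also searched on both strands, were found on the printed strand of Serpina3c and on the opposite strand of Serpina3f, and on either strand in 12.3% of all stretches.

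Further genes fell strongly in 3xTg-D. Tuba1c, an alpha-tubulin, stood at 20.7, 20.6, 8.99 and 10.6 CPM in WT-D and at 0.0552, 0.467, 0.107 and 0.329 CPM in 3xTg-D (log2 fold change -5.88 ± 0.47, adjusted p = 7.75e-05). Its WT-D mice thus fell at 2 levels, both far above the 3xTg-D mice, and the inhibitor-infused WT-S mice did likewise at 19.0, 21.1, 9.19 and 8.95 CPM. Other genes share 55.3% of its 31-base words. Ccl28, a mucosal chemokine, stood at 3.25, 7.55, 5.82 and 4.32 CPM in WT-D and at 0.773, 0.212, 0.0537 and 0.165 CPM in 3xTg-D (adjusted p = 0.00158). Ccr6, a chemokine receptor of lymphocytes, held 116 reads over WT-D and 3 over 3xTg-D mice, a ratio of 36.7 (95% exact counting interval 12.3 to 181). Tnni1, the troponin I of slow muscle fibres, had 1.99 ± 0.403 CPM in WT-D and 0.0865 ± 0.0378 in 3xTg-D (adjusted p = 5.44e-05). Zfp429, a zinc finger protein, had 2.74 ± 1.02 and 0.311 ± 0.186 CPM, and Krt12, a keratin, 1.26 ± 0.458 and 0.179 ± 0.0241 CPM (adjusted p = 0.00274 and 0.0024). Predicted genes completed the group. Gm12666 held 104 reads in WT-D and none in 3xTg-D, at least 32.9-fold lower against a floor of 3 reads over the group, while Gm5678 fell by 4.18 and Gm45844 by 3.51 on the log2 scale. Gbp2b, an interferon-inducible GTPase, held 1562 reads over WT-D and 2 over 3xTg-D. Most came from WT-D1 (59.8 CPM, against 2.41 to 3.09 CPM in the other WT-D mice), and its adjusted p of 0.047 passed the threshold with any WT-D mouse left out but not with any 3xTg-D mouse left out (up to 0.233).

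The largest rises included a ribosomal protein, a stem cell receptor and members of the Trim family. Rpl34 (chr3:130726831-130730398), a protein of the large ribosomal subunit, stood at 3.38, 3.68, 3.87 and 4.42 CPM in WT-D and at 32.5, 44.0, 33.4 and 25.2 CPM in 3xTg-D, an 8.84-fold rise (log2 fold change 3.14 ± 0.17, adjusted p = 7.04e-06). Lgr6, a receptor for R-spondins, stood at 2.91, 2.95, 4.07 and 5.19 CPM in WT-D and at 12.1, 11.2, 13.8 and 16.2 CPM in 3xTg-D (3.54-fold, adjusted p = 0.000766). Neither gene had overlapping groups. Trim12a (chr7:104299894-104315466), of the antiviral Trim5 family, had no read in any WT-D mouse and 3.92, 6.67, 3.49 and 3.13 CPM in the 3xTg-D mice, at least 123-fold higher against a floor of 3 reads over the group. Its neighbours Trim30d (0.121 ± 0.182 and 3.36 ± 2.49 CPM, adjusted p = 0.0124) and Trim34a (0.458 ± 0.198 and 2.22 ± 1.34 CPM, adjusted p = 0.0374) rose with it. Of the inhibitor-infused WT-S mice, 3 again had no Trim12a read and 1 had 1.61 CPM. Neurog2, a proneural transcription factor, had 0.0846 ± 0.0495 CPM in WT-D and 1.09 ± 0.334 in 3xTg-D (adjusted p = 0.00108). Ccr1, a receptor for inflammatory chemokines, had 0.461 ± 0.317 and 2.73 ± 1.29 CPM, Col6a4, a collagen VI chain, 0.56 ± 0.101 and 2.19 ± 1.02 CPM, and Upk1b, a uroplakin, 0.815 ± 0.535 and 2.79 ± 0.16 CPM. 1700010I14Rik rose by 1.65 on the log2 scale (adjusted p = 0.0104). The calls of 4 of these genes depended on single mice. Trim34a lost its call without any WT-D mouse, 3xTg-D1 or 3xTg-D4 (adjusted p up to 0.103), Upk1b without 3xTg-D1, 3xTg-D3, 3xTg-D4, WT-D1, WT-D2 or WT-D4 (up to 0.106), Ccr1 without 3xTg-D3, WT-D2 or WT-D3 (up to 0.0797) and Col6a4 without WT-D2 or WT-D4 (up to 0.0611).

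Against these single genes, lists of marker and pathway genes showed few calls. Of 45 lists, 29 held no called gene, and no list held more than 3, beside the 1.85% of all tested genes that were called. The 29 lists without a call in the main edgeR fit, which defines the called genes, held 535 different genes. Of these genes, 95 had an unadjusted p under 0.05 and 17 were called by DESeq2. The plot of the lists shows the median of most of them close to 0, where the median of all tested genes lay. In bulk tissue, fewer cells of a type and less RNA per cell cannot be told apart.

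**Figure D3:**
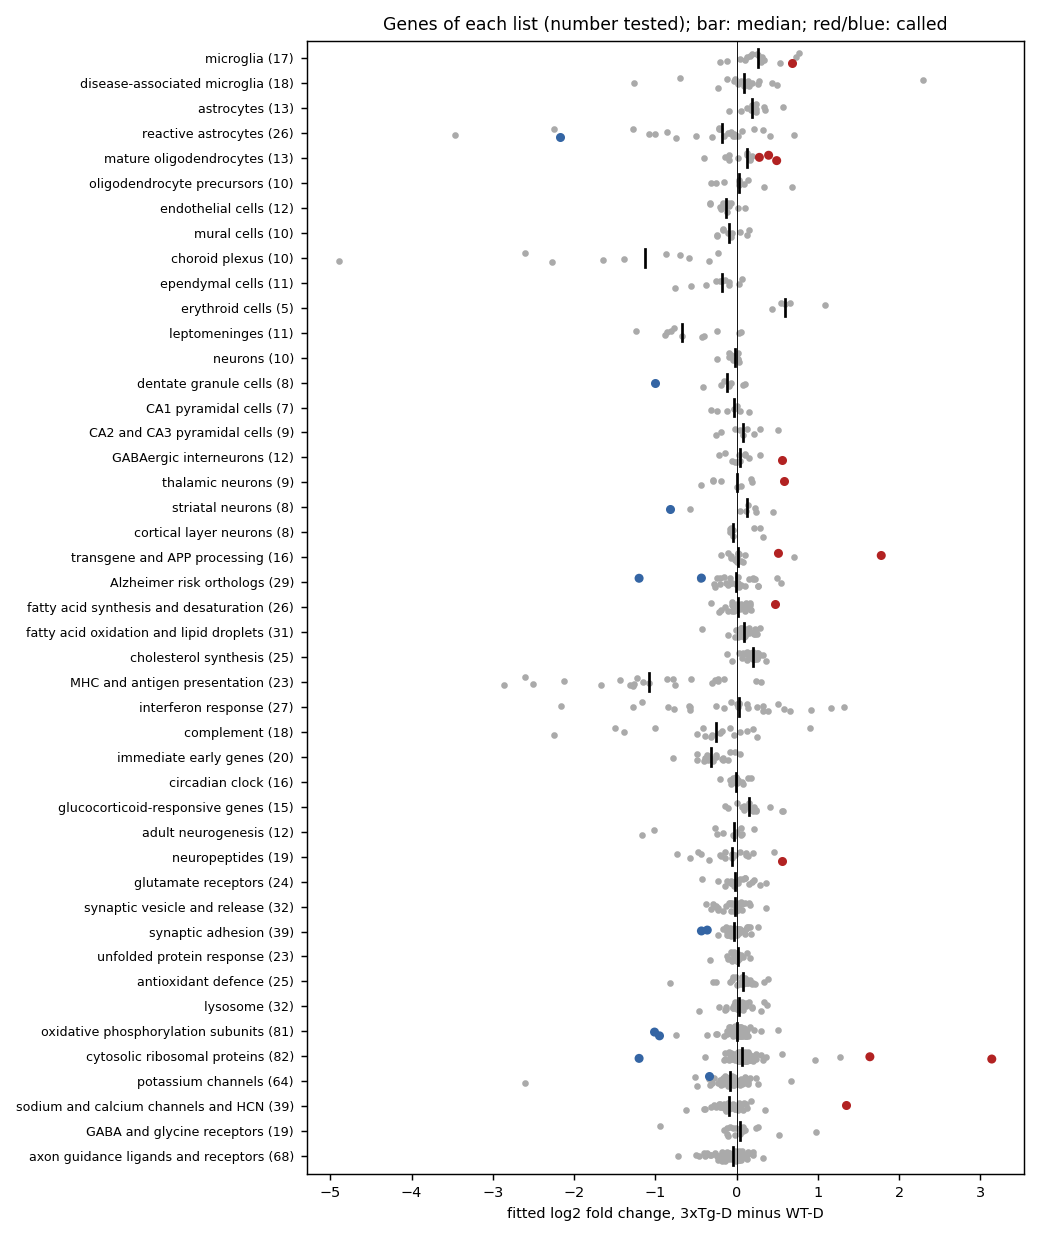
Fitted log2 fold change of 3xTg-D minus WT-D for each tested gene of 45 lists (points; number tested in parentheses), with the list's median as a black bar; called genes are red where higher and blue where lower. The MHC list (median -1.08) and the choroid plexus list (median -1.13) lie furthest to the left without any called gene.

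Among glial lists, mature oligodendrocytes held the most called genes, 3 of 13, all higher in 3xTg-D. Mbp, the main cytoplasmic protein of compact myelin, stood at 1850, 1670, 1910 and 2000 CPM in WT-D and at 2580, 3040, 2230 and 2600 CPM in 3xTg-D (log2 fold change 0.49 ± 0.09, adjusted p = 0.0214). Mobp, another structural myelin protein, stood at 848, 768, 807 and 944 CPM and at 1100, 1210, 1010 and 1110 CPM (log2 fold change 0.39 ± 0.08, adjusted p = 0.0275). The summed level of the 13 markers lay between 4906 and 5778 CPM in WT-D and between 6279 and 7369 CPM in 3xTg-D, so that the groups did not overlap. The other 10 markers were not called, and their sums overlapped, at 940 to 1117 CPM in WT-D and 1046 to 1215 CPM in 3xTg-D. Mag had 105 CPM and 107 CPM, Cnp 226 CPM and 247 CPM, and Mog 49.6 CPM and 46.7 CPM in WT-D and 3xTg-D. The median over the 13 genes was 0.134. Mbp and Mobp lost their calls without 3xTg-D1, 3xTg-D4, WT-D1, WT-D2 or WT-D3 (adjusted p up to 0.0687 and 0.0916), and no gene of the list was called with all 16 libraries in 1 fit or with the share of reads outside genes as a covariate. Oligodendrocyte precursor genes had no call among 10, and their sums were 498 to 517 CPM in WT-D and 436 to 542 CPM in 3xTg-D.

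None of 13 astrocyte genes was called, while 12 of the 13 had a positive fold change, with a median of 0.19, and 7 an unadjusted p under 0.05. The glutamate transporters Slc1a2 (3680 ± 261 CPM in WT-D, 4170 ± 371 in 3xTg-D) and Slc1a3 (857 ± 50.2 and 1010 ± 106 CPM) had adjusted p-values of 0.355 and 0.214. Of 26 reactive astrocyte genes, Serpina3n alone was called, and 20 of the 26 had a negative fold change, with a median of -0.184. The sums of that list were 499 to 515 CPM in 3 WT-D mice and 1073 CPM in WT-D1, and 350 to 374 CPM in 3 3xTg-D mice and 556 CPM in 3xTg-D2, so the same 2 mice stood out within both groups. The lower 3xTg-D sums rested on Serpina3n. Summed over the other 25 genes, a sum added after seeing the data, the level was 291 to 308 CPM in the same 3 WT-D mice and 301 to 328 CPM in the same 3 3xTg-D mice. Etnppl, an astrocytic lyase that breaks down phosphoethanolamine and is outside both lists, stood at 6.25, 8.56, 9.04 and 6.17 CPM in WT-D and at 19.4, 21.3, 25.9 and 24.8 CPM in 3xTg-D, a 3.04-fold rise (log2 fold change 1.61 ± 0.15, adjusted p = 0.000261).

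Of 17 microglia genes 15 had a positive fold change, with a median of 0.265, and 3 an unadjusted p under 0.05. Only P2ry13, a purinergic receptor, was called among them. It stood at 16.6, 16, 13.6 and 11.8 CPM in WT-D and at 24.1, 26.8, 23 and 19.3 CPM in 3xTg-D (log2 fold change 0.68 ± 0.13, adjusted p = 0.0233). The call was lost without 3xTg-D1, 3xTg-D3, WT-D3 or WT-D4 (adjusted p up to 0.0804). Csf1r, the receptor on which microglia depend for survival, had 98.5 ± 31.8 and 113 ± 27.8 CPM (adjusted p = 0.76). The list's sum was highest in WT-D1 (911 CPM) and 3xTg-D2 (1135 CPM) and 499 to 617 CPM and 603 to 716 CPM in the other WT-D and 3xTg-D mice. None of 18 disease-associated microglia genes was called, and Apoe, the main lipoprotein of the brain and among them, had 1120 ± 97.1 and 1340 ± 296 CPM (adjusted p = 0.459). Without WT-D1 and 3xTg-D2, 3 of these 18 genes were called.

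No gene was called among 23 MHC and antigen presentation genes, 27 interferon-response genes or 18 complement genes. The MHC median of -1.08 came with wide spread. B2m, the light chain of MHC class I, stood at 302, 91.6, 78.4 and 88.3 CPM in WT-D and at 88.6, 232, 75.8 and 80.7 CPM in 3xTg-D, and the class I heavy chain H2-D1 at 127, 23.1, 22.7 and 25.1 CPM and at 25.3, 90.1, 19.2 and 25 CPM. In each group 1 mouse was several times higher than the others, and the others overlapped between groups. All 23 MHC genes were highest in WT-D1 among the WT-D mice and in 3xTg-D2 among the 3xTg-D mice. Without both mice 2 of the 23 were called, and 2 of the 18 complement genes, and their directions are not reported here.

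Vessel and barrier lists gave no calls: none of 12 endothelial, 10 mural, 11 ependymal, 11 leptomeningeal or 10 choroid plexus genes, and none of 5 erythroid genes. Ttr, the thyroxine carrier of the choroid plexus, stood at 1.84, 31.9, 22.2 and 643 CPM in WT-D and at 3.86, 4.93, 13.4 and 1.37 CPM in 3xTg-D, and Enpp2, the lysophospholipase autotaxin, at 209, 205, 216 and 651 CPM and at 226, 166, 202 and 194 CPM. WT-D4 alone set the WT-D mean in both. All 10 choroid plexus genes were highest in that mouse among the WT-D mice.

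Neuronal identity lists were close to even. None of 10 pan-neuronal, 7 CA1, 9 CA2 or CA3 and 8 cortical layer genes was called, and the pan-neuronal median was -0.0231. Among 8 dentate granule cell genes C1ql2 was called, a secreted organiser of mossy fibre synapses. It stood at 42.8, 35.9, 37.8 and 43.7 CPM in WT-D and at 17.3, 25.1, 16.2 and 20.7 CPM in 3xTg-D, a 2.01-fold fall (log2 fold change -1.01 ± 0.13, adjusted p = 0.00232) that held in all 8 fits without 1 mouse. Prox1, the transcription factor that defines granule cells, had 132 ± 18.2 and 116 ± 6.24 CPM (adjusted p = 0.418), and Calb1 204 ± 8.46 and 219 ± 15.1 CPM (adjusted p = 0.534). Of 12 interneuron genes, Vip, the peptide of an interneuron class that inhibits other interneurons, rose from 20.6 ± 2.84 to 30.5 ± 2.4 CPM (adjusted p = 0.0175, but up to 0.0733 without 3xTg-D3, 3xTg-D4 or WT-D4, where the call was lost). Markers of neighbouring regions gave 1 call each among 9 thalamic genes (Synpo2, log2 fold change 0.58, adjusted p = 0.0183) and 8 striatal genes (Rgs9, log2 fold change -0.82, adjusted p = 0.0149). Synpo2 lost its call without 3xTg-D3, WT-D1 or WT-D2 (up to 0.0743). The sums of the thalamic list, 115 to 127 CPM in WT-D and 103 to 129 CPM in 3xTg-D, overlapped.

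At synapses, 2 of 39 adhesion genes were called, both lower. Cntnap2, which clusters potassium channels at the axon, stood at 184, 180, 175 and 172 CPM in WT-D and at 137, 105, 139 and 146 CPM in 3xTg-D (log2 fold change -0.43 ± 0.09, adjusted p = 0.0398). Cntnap5a, of the same family, stood at 55.6, 50.2, 54.5 and 53.4 CPM and at 41.0, 38.5, 44.7 and 42.3 CPM (log2 fold change -0.36 ± 0.06, adjusted p = 0.0127). Neither had overlapping groups. Cntnap2 was called without 3xTg-D2 or 3xTg-D4 but not without any of the other 6 mice (adjusted p up to 0.105), and Cntnap5a was lost without 3xTg-D1 (0.0529). Cntnap2 and Wwox were the only 2 called genes of the 29 Alzheimer risk orthologs. None of 32 synaptic vesicle genes, 24 glutamate receptor genes, 19 GABA and glycine receptor genes, 68 axon guidance genes or 12 neurogenesis genes was called. Among 64 potassium channel genes the inward rectifier Kcnj16 fell from 35.5 ± 2.53 to 28.1 ± 0.988 CPM (adjusted p = 0.0252), and among 39 sodium, calcium and HCN channel genes the calcium channel subunit Cacng6 rose from 1.15 ± 0.399 to 2.96 ± 0.601 CPM (adjusted p = 0.0299). Kcnj16 lost its call without any mouse but 3xTg-D2 and WT-D4 (up to 0.0875), and Cacng6 without any but 3xTg-D2, WT-D2 and WT-D3 (up to 0.0979).

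Immediate early genes, which neurons transcribe within minutes of activity, had negative fold changes in 19 of 20 genes, with a median of -0.31 beside -4.27e-05 over all tested genes. None was called in the main edgeR fit, while 9 had an unadjusted p under 0.05 and 2 were called by DESeq2. Their sums were 882 to 1081 CPM in WT-D and 825 to 868 CPM in 3xTg-D and did not overlap. The nuclear receptors Nr4a1 and Nr4a2, named after their values were seen, passed the unadjusted threshold of 0.01. Nr4a1 stood at 51.4, 31, 31.8 and 44.5 CPM in WT-D and at 27.3, 18.6, 25.8 and 21 CPM in 3xTg-D (adjusted p = 0.0589), and Nr4a2 had 65.3 ± 5.56 and 50 ± 6.72 CPM (adjusted p = 0.0894). DESeq2's likelihood ratio test called both (adjusted p = 0.000855 and 0.0107). edgeR called both too with no low-count filter (0.00411 and 0.0215) and with all 16 libraries in 1 fit (0.0338 and 0.0358). With a replicate block it called Nr4a1 alone (0.0233). Of the fits that left out 1 mouse, the one without WT-D2 called Nr4a1 (0.0477) and the one without 3xTg-D4 called Nr4a2 (0.0341). Between 3xTg-S and WT-S their log2 fold changes were -0.15 and 0.04 (adjusted p = 0.772 and 0.878 by edgeR).

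Lipid genes, the subject of the study, showed little at the adjusted threshold. Of 26 fatty acid synthesis and desaturation genes 1 was called, the acyl-CoA synthetase Acsf2, at 7.4 ± 0.523 CPM in WT-D and 10.3 ± 0.755 in 3xTg-D (log2 fold change 0.48 ± 0.10, adjusted p = 0.0382). It lost its call without any single mouse (0.0647 to 0.116). Scd2, the stearoyl-CoA desaturase most expressed in brain, had 1420 ± 56.5 and 1470 ± 72.0 CPM (adjusted p = 0.73). None of 31 fatty acid oxidation and lipid droplet genes was called, while 27 of the 31 had a positive fold change, with a median of 0.0892. Cholesterol synthesis had no call among 25 genes in the main edgeR fit. Of these, 10 had an unadjusted p under 0.05 and 3 were called by DESeq2. Of the 25 genes 23 had positive fold changes, with a median of 0.198. Hmgcs1, an early enzyme of the pathway, stood at 309, 302, 300 and 258 CPM in WT-D and at 416, 328, 409 and 346 CPM in 3xTg-D (log2 fold change 0.36 ± 0.09, adjusted p = 0.0874), and Srebf2, the factor that switches the pathway on, at 146, 137, 142 and 137 CPM and at 165, 150, 169 and 161 CPM (adjusted p = 0.101). Neither had overlapping groups. Of the 8 fits that left out 1 mouse, only the one without 3xTg-D2 called Hmgcs1 (adjusted p = 0.027 by edgeR) or Srebf2 (0.0293). That fit called 5 of the 25 genes. edgeR also called Hmgcs1 with no low-count filter (0.0308), with all 16 libraries in 1 fit (0.0446) and with a replicate block (0.0476). Without WT-D1 and 3xTg-D2 together it called Hmgcs1 (0.0189) and Srebf2 (0.0363). The summed level of the list lay at 1271 to 1409 CPM in WT-D and 1408 to 1744 CPM in 3xTg-D, so the ranges met, the lowest 3xTg-D value being that of 3xTg-D2.

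The ribosomal protein and oxidative phosphorylation lists held few calls and medians near 0. Of 82 cytosolic ribosomal protein genes 3 were called: Rpl34 and Rpl29 higher and Rplp0 lower. Rpl29 stood at 5.56, 5.03, 5.57 and 4.37 CPM in WT-D and at 17.1, 20.6, 13.7 and 12.7 CPM in 3xTg-D (log2 fold change 1.64 ± 0.16, adjusted p = 0.000451). Rplp0, a protein of the ribosomal stalk, stood at 99.6, 85.0, 60.7 and 76.9 CPM and at 34.2, 42.5, 32.7 and 30.2 CPM (log2 fold change -1.20 ± 0.15, adjusted p = 0.00179). The median of the list was 0.0715. Ribosomal protein genes have many processed copies in the genome, and other genes held 10.4% of the 31-base words of Rpl34, 44.9% of those of Rpl29 and 42.8% of those of Rplp0. Of 81 oxidative phosphorylation genes, the cytochrome c oxidase subunits Cox7c (10.0 ± 0.997 and 5.17 ± 1.01 CPM, adjusted p = 0.00835) and Cox6a2 (1.32 ± 0.109 and 0.653 ± 0.0427 CPM, adjusted p = 0.0267) were lower, while the list's median was 0.00989. Cox6a2 lost its call without any single mouse (0.0546 to 0.0797). Unfolded protein response (23 genes), antioxidant defence (25), lysosome (32), circadian clock (16) and glucocorticoid-responsive (15) lists gave no call. The glucocorticoid-responsive list had a median of 0.151, with 13 of its 15 genes positive and 2 called by DESeq2.

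Called genes were unevenly spread over the chromosomes. Chromosome 13 held 44 of its 631 tested genes as called (6.97%), 14 higher and 30 lower, followed by chromosome 18 (4.05%), 3 (3.14%), 7 (3.11%), 16 (3.01%) and 9 (2.64%). Of the autosomes and X, chromosomes X (0.705%) and 2 (0.714%) held the smallest shares. Of the 305 called genes 164 (53.8%) had another called gene starting within 1 Mb, against 22.2% of the genes that were not called. Divided into 5 Mb windows, the genome held 533 windows with a tested gene. The 18 windows with 4 or more called genes contained 113 of the 305 called genes (37.0%) and 5.63% of tested genes, and outside them 1.23% of tested genes were called. These windows were picked by their calls, so that their share is a description. Of 111 pairs of adjacent called genes within 1 Mb, 66 (59.5%) moved in the same direction and 45 in opposite directions.

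**Figure D4:**
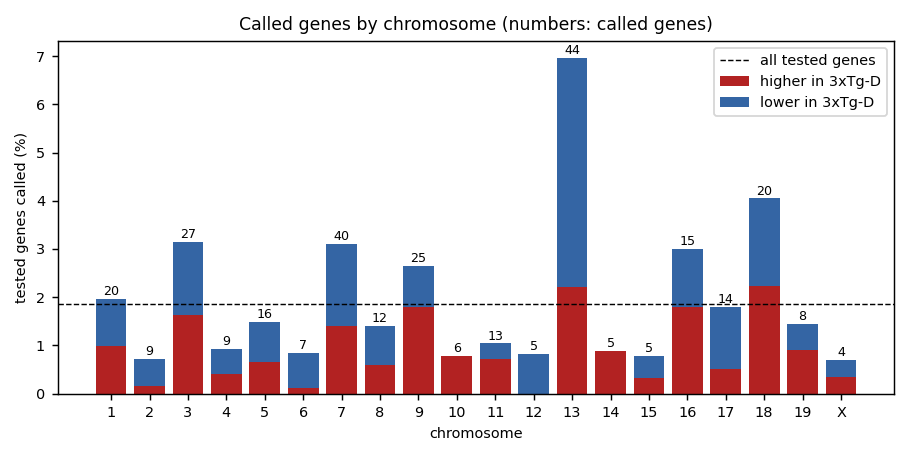
Percentage of tested genes called on each chromosome, stacked as higher (red) and lower (blue) in 3xTg-D, with the number of called genes above each bar and the share over all tested genes (1.85%) as a dashed line. Chromosome 13 reaches 6.97% with 44 called genes, and X and 2 have the lowest shares of those drawn.

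In most of these windows some called genes rose and others fell. On chromosome 13 at 10 to 15 Mb, 7 of 23 tested genes were called. Gpr137b, a lysosomal membrane protein, rose from 8.42 ± 0.736 to 17.3 ± 0.845 CPM, while its pseudogene copy Gpr137b-ps fell from 8.08 ± 0.463 to 1.52 ± 0.339 CPM (adjusted p = 0.000133 and 2.27e-05). They share 36.4% and 38.0% of their 31-base words with other genes. Close to them the galectin gene Lgals8 rose from 31.8 ± 0.537 to 43.9 ± 0.884 CPM and Ero1lb, an oxidase that forms disulfide bonds in the endoplasmic reticulum, fell from 16 ± 1.36 to 8.14 ± 0.967 CPM. At 65 to 70 Mb 9 of 49 were called, 8 of them lower and several of them zinc finger genes, such as Zfp874a (22.6 ± 3.76 and 12.8 ± 0.419 CPM, adjusted p = 0.00464). Mfsd14b, a transporter, was the 1 higher gene there (57.3 ± 2.02 and 69.7 ± 2.29 CPM, adjusted p = 0.016). It lost its call without 3xTg-D1, 3xTg-D3, WT-D1, WT-D2 or WT-D3 (up to 0.0625). At 115 to 120 Mb 6 of 16 were called, among them 4833420G17Rik (40.1 ± 3.25 and 11.7 ± 2.36 CPM), Zfp131 (65.7 ± 3.41 and 43.9 ± 1.88 CPM) and Ccl28, all lower.

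On chromosome 9, 11 of 117 genes were called at 105 to 110 Mb. Tma7, a ribosome-associated protein, stood at 12.8, 14.9, 14.3 and 12.9 CPM in WT-D and at 31.3, 36.2, 31.7 and 27.1 CPM in 3xTg-D (2.3-fold, adjusted p = 7.31e-05). Spink8, a Kazal-type protease inhibitor, rose 2.18-fold (9.35 ± 0.387 and 20.4 ± 3.25 CPM), whereas Col6a6, a collagen VI chain, fell 5.73-fold (2.09 ± 0.352 and 0.367 ± 0.116 CPM) close to Col6a4, which rose. At 120 to 125 Mb 7 of 69 were called. Mobp and Ccr1 lie there, with Lztfl1, a regulator of ciliary traffic (46.8 ± 1.64 and 66.4 ± 3.64 CPM), and Clec3b, the plasminogen-binding tetranectin (3.07 ± 0.987 and 0.619 ± 0.133 CPM). The former rose and the latter fell. The myelin gene Mbp likewise lies in a window with 7 calls among 29 genes, at 80 to 85 Mb of chromosome 18. At 35 to 40 Mb of that chromosome, 4 of the 5 called genes were clustered protocadherins, cell-surface proteins that give neurons individual identities. Pcdhga11 stood at 24.1, 19.5, 22.2 and 25.7 CPM in WT-D and at 3.86, 3.87, 2.9 and 3.07 CPM in 3xTg-D (log2 fold change -2.73 ± 0.13, adjusted p = 2.17e-06). Pcdhgb6 fell from 10.1 ± 0.859 to 3.54 ± 0.684 CPM, while Pcdhga4 rose from 5.09 ± 0.471 to 12.1 ± 1.47 CPM and Pcdhb9 from 18.2 ± 1.86 to 26.4 ± 0.859 CPM. The protocadherins share exons and long stretches of sequence, 73.3% of the 31-base words in Pcdhga11.

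Chromosome 3 had 3 neighbouring windows with 4 or more calls between 125 and 140 Mb. Alpk1, Neurog2, Rpl34 and Etnppl lie in them, with Col25a1, a membrane collagen found in amyloid plaques (145 ± 3.63 and 104 ± 10.7 CPM, adjusted p = 0.00744), Bank1, a scaffold of B cell signalling (3.98 ± 0.534 and 1.92 ± 0.152 CPM, adjusted p = 0.00484), and Cisd2, an iron-sulfur protein of the endoplasmic reticulum (43.8 ± 2.69 and 66.2 ± 3.29 CPM, adjusted p = 0.000485). Bank1 and Col25a1 were lower and Cisd2 higher in 3xTg-D. On chromosome 16 at 45 to 50 Mb, 6 of 18 genes were called. Cd47 and Cd200, which are among the ligands on neurons that restrain microglia, lie there. Cd47 stood at 284, 303, 265 and 306 CPM in WT-D and at 230, 213, 229 and 210 CPM in 3xTg-D (log2 fold change -0.39 ± 0.06, adjusted p = 0.00747). Cd200 stood at 68.5, 76.3, 82.8 and 72.6 CPM and at 95.9, 94.2, 95.5 and 100 CPM (log2 fold change 0.36 ± 0.06, adjusted p = 0.015). They thus moved in opposite directions, each without overlap. Ccdc80, a matrix protein, fell from 9.38 ± 1.99 to 3.71 ± 0.703 CPM and Slc35a5, a nucleotide-sugar transporter, rose from 55.8 ± 6.52 to 75.7 ± 2.33 CPM. Cd200 lost its call without 3xTg-D1, 3xTg-D3 or WT-D4 (up to 0.0585) and Slc35a5 without 3xTg-D1, 3xTg-D3, WT-D2 or WT-D4 (up to 0.0679). On chromosome 7, 10 of 55 genes were called at 100 to 105 Mb, with the mitochondrial ribosomal protein Mrpl48 (34.0 ± 1.47 and 52.1 ± 1.59 CPM, adjusted p = 0.000133) near the Trim genes, and 8 of 79 at 15 to 20 Mb, among them Pglyrp1, a secreted peptidoglycan receptor (2.59 ± 0.129 and 0.633 ± 0.109 CPM), and Kptn, a subunit of a nutrient-sensing complex (12.4 ± 1.1 and 18.1 ± 1.25 CPM). At 130 to 135 Mb of chromosome 1 all 5 called genes were higher, including Lgr6 and the chitinase-like Chil1 (7.85 ± 1.24 and 17.9 ± 5.23 CPM, adjusted p = 0.013, lost without 3xTg-D3 or WT-D4 at up to 0.0555).

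Called genes also differed from the rest in how much sequence they share with other genes. At least 50% of the 31-base words occurred in another gene's transcripts for 42 of the 305 called genes (13.8%), against 4.31% of all tested genes. Among called genes that differed by at least 1 on the log2 scale the share was 24.5% (40 of 163), and among those that differed by less it was 1.41% (2 of 142). Since the counts leave out reads that map to several places, levels of such genes are uncertain.

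The genotype difference was then read in the inhibitor-infused mice, which shared no animal with the vehicle groups. Of the 305 called genes 300 (98.4%) had the same direction between 3xTg-S and WT-S, against 52.6% of all tested genes. There, 230 genes were called (1.4% of tested genes), of which 140 were called under vehicle too. These 140 made up 45.9% of the vehicle calls and 60.9% of the calls under the inhibitor. The median log2 difference of the 305 genes in the vehicle direction was 1.08 under vehicle and 0.935 under CAY10566. Of called genes that differed by at least 1 on the log2 scale, 63.2% were called again, and of those under 0.5, 13.9%. Thy1 (log2 fold change 1.68), App (0.54), Serpina3n (-2.20), Ccl27a (-3.32), Wwox (-1.31), C1ql2 (-1.27) and Alpk1 (-1.63) were all called again. Cntnap2 (-0.14), Cntnap5a (-0.09), Acsf2 (0.1), Vip (0.36) and Synpo2 (0.42) kept their direction but were not called (adjusted p = 0.315 to 0.791 by edgeR). The myelin genes Mbp and Mobp were also not called again, with log2 fold changes of 0.21 for Mbp and 0.08 for Mobp (adjusted p = 0.722 and 0.918 by edgeR). Their genotype by treatment interactions did not pass the edgeR test either (adjusted p = 0.788 for both). Of the 5 genes with opposite directions, named after their values were seen, P2ry13 had 0.68 under vehicle and -0.05 under CAY10566 (adjusted p of the interaction = 0.788 by edgeR). The others were Epb41, Gm15920, Rnd2 and Papss2, and all 5 had adjusted p-values of at least 0.787 in the inhibitor-infused mice. No gene was called in the test of the genotype by treatment interaction by edgeR (smallest adjusted p = 0.788, with 821 genes at an unadjusted p under 0.05), so the genotype differences of both settings were not shown to differ.

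**Figure D5:**
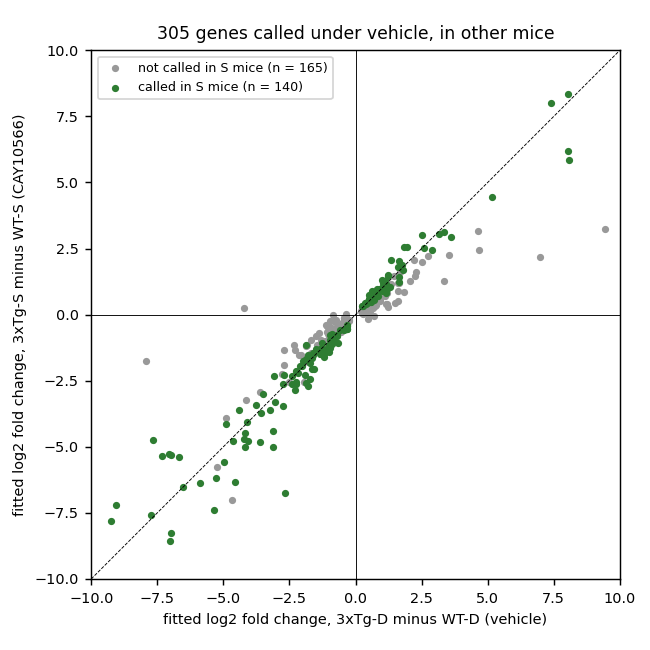
Fitted log2 fold change of the 305 called genes between 3xTg-D and WT-D (horizontal axis) and between 3xTg-S and WT-S (vertical axis), green where also called in the latter (140 genes); the dashed line marks equal values. Of the 305 points, 300 lie in the quadrants of equal direction.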

How the data were processed

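The authors prepared single-end mRNA libraries with UMI adapters from whole hippocampus of 16 mice. Per the study's methods, reads were trimmed with Trimmomatic 0.35 and aligned with STAR 2.5.1b to GRCm38 with Gencode M23 annotation. The deposited values are raw counts of reads per gene for 55335 genes, with 4 summary rows (reads outside genes among them, 8.794 to 12.52% in the vehicle libraries) that were left out of library sizes and tests. Per the study's methods STAR also made the count matrix. Its gene counts take reads that map to 1 place, and multiply mapping reads stand in a summary row. The strand setting and the use of the UMIs are not given in the sources used here, so antisense and overlapping genes and near copies are uncertain.

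Groups came from the labels. From these counts, edgeR 4.0.16 in R 4.3.3 was run with filterByExpr over all 16 libraries (minimum count 10, minimum total 15; 16475 genes kept), TMM scaling and a two-sided quasi-likelihood test fitted on the 8 vehicle libraries, with Benjamini-Hochberg adjustment and a threshold of 0.05. The inhibitor-infused libraries were fitted in the same way on their own, and the interaction was fitted on all 16. An unadjusted p of 0.01, the study's own threshold, was used beside it. The SE of a log2 fold change is its size divided by the square root of F. Each library is 1 mouse. No 2 libraries agreed within sampling noise. Shared sequence is the percentage of a gene's 31-base words that occur in transcripts of other genes in Gencode M21. Ratios of low counts carry 95% exact intervals, which cover counting error only. Promoter stretches came from RefSeq (GRCm38.p6) and were matched by symbol. Scripts were tested on simulated data with known changes.

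The comparison, the 45 gene lists and the tests were chosen with earlier results of these data known. Named genes were genes tied to the genotype (Thy1, App and Mapt among them), the 12 called protein-coding genes with the largest and the 12 with the smallest log2 fold change among those with a mean of at least 1 CPM in 1 group and no overlap, up to 4 called members with the smallest p and up to 2 uncalled members with the highest level of each list, and up to 4 called genes with the smallest p of each window with 4 or more calls. From those, a selection is printed, with exceptions marked, and the values of some genes are not reported here. Alternatives were RLE scaling, DESeq2 1.42.0, filters, thresholds, distances, all 16 libraries in 1 fit, a replicate block, a covariate and left-out mice.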

Additional observations from a re-analysis of the deposited data

Results flagged for a closer look

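In 31 of 268 groups of 4 mice that were examined, 1 mouse stood apart by Dixon's criterion at the 95% level, where chance would give about 13.4. Most of them came from the same 2 mice. WT-D1 stood apart in B2m (302 CPM), H2-D1 (127 CPM), Gbp2b (59.8 CPM), Serpina3f (1.16 CPM) and, as the lowest, Spink8 (8.77 CPM), and in the summed CPM of MHC and antigen presentation genes (1125), interferon-response genes (649), reactive astrocyte genes (1073) and lysosomal genes (4297). 3xTg-D2 stood apart in B2m (232 CPM), H2-D1 (90.1 CPM), Trim30d (7.1 CPM), Serpina3m (0.0425 CPM, a single read) and Ccr6 (0.127 CPM), and in the sums of MHC (570), interferon-response (477), reactive astrocyte (556), lysosomal (4450) and adult neurogenesis genes (253). The same mouse was lowest in the sums of pan-neuronal genes (8094) and of CA2 and CA3 genes (484).

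WT-D4 stood apart in Ttr (643 CPM), Enpp2 (651 CPM) and the sum of choroid plexus genes (1415). The remaining cases were single values of 3xTg-D mice. These were Gbp2b (0.11 CPM) and the ependymal sum (45.2) in 3xTg-D1, Krt12 (0.215 CPM) and Zfp429 (0.59 CPM) in 3xTg-D3, and Mfsd14b (66.3 CPM), Zfp874a (13.4 CPM) and the neuropeptide sum (779) in 3xTg-D4. The causes were not tested.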

How the results depend on the processing

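The 79 called genes followed across 16 alternatives include those named in the text except Epb41, Gm15920, Rnd2 and Papss2. None of the 79 changed direction. Of these 55 were called in each alternative that gave a value and 24 were not. DESeq2 called 506 genes (240 higher and 266 lower), with 62.8% having a called neighbour. Without a low-count filter 252 genes were lower, and with at least 10 counts in every library, which removed genes that were near 0 in 1 group, 168 genes were called (87 higher, 81 lower), 43.5% with a neighbour. An unadjusted p of 0.01 gave 809 genes (402 higher, 407 lower), of which 68.7% had such a neighbour and 92.1% the same direction in the inhibitor-infused mice. That share was 99.3% with all 16 libraries in 1 fit and 99.6% with the share of reads outside genes as a covariate. Within 0.5 Mb 44.9% and within 2 Mb 66.9% of called genes had a called neighbour. The causes of these shifts were not tested. Leaving out 1 mouse gave 159 to 300 called genes, 64 to 138 higher, 95 to 162 lower, 46.8 to 54.0% with a neighbour and 95.4 to 100% in the same direction. Replicate numbers did not pair the mice: deviations of same-numbered libraries correlated at -0.0956 to 0.185 (mean 0.0413 over 4 pairs, against -0.0103 for different numbers), and the replicate block gave 300 called genes (137 higher, 163 lower). With 4 mice per group and 18056497 to 23590149 reads, small differences of weakly expressed genes could not be detected.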
